A study of Mus musculus with 24 samples.

Results

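*Pip* and *Mal* are 2 of the 20141 gene symbols that the array's probes could be given through their accessions. They were selected on their measured array values, since the study names both as lactation markers that move with *mPINC* knockdown and overexpression, so their differences between *mPINC* knockdown or overexpression cells and controls are given here as descriptions, with no test. Each is measured by 1 probe with a single spot, A_51_P174143 for *Pip* and A_55_P2113160 for *Mal*, and both probes were well above background on all 24 arrays. The response to hormones in control cells and the comparison of the *mPINC* deletion mutant with its vector control were not themselves used in the choice, and these were tested. They do share the control siRNA and vector control arrays with the comparisons that were used, and both genes were named as lactation markers. Their p-values are therefore not independent of the choice.

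*Pip* encodes prolactin-induced protein, a small secreted protein of apocrine and lacrimal glands and of milk, whose gene responds to prolactin and steroid hormones. *Mal* encodes a membrane-spanning protein of the MARVEL family that sits in cholesterol-rich membrane domains and carries cargo to the apical surface of polarized epithelia, and it is also made by T lymphocytes and by the cells that form myelin. Prolactin acts through its receptor, the kinase JAK2 and the transcription factor STAT5, and hydrocortisone through the glucocorticoid receptor. Both routes meet on milk protein genes in mammary alveolar cells.

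The cells were HC11, a mouse mammary epithelial line that began from a mid-pregnant Balb/c gland and that makes milk proteins under lactogenic hormones (LH: prolactin and hydrocortisone added to medium with insulin). The siRNA groups received 10 nM of a negative control siRNA (siNEG), a pair called siPINC1.0/1.6 that is directed at the long noncoding RNAs *mPINC1.6* and *mPINC1.0*, or a pair meant to reach all *mPINC* splice forms, the *DCR2* form included (siPINC), with 1 siRNA shared by both pairs. Each was arrayed without hormones (-LH, n = 2) and with them (+LH, n = 3). The lentiviral groups, all +LH (n = 3 each), were LeGO-1.0/1.6 with both of those *mPINC* forms, the vector control LeGO-GFP, and LeGO-DCR with *mPINC* without its conserved terminal exons, and none of them was arrayed without hormones. The methods call the replicates biological, but the sources used here do not say whether the lentiviral replicates came from separate transductions, nor for how long the arrayed cells had hormones. In the methods the growth medium holds epidermal growth factor, and the hormones are given in a priming medium without it and with stripped horse serum. Whether the -LH cells had the priming medium is not stated, so hormones and medium cannot be told apart in +LH against -LH.

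The arrays held between 24018 and 35412 probes well above background and no saturated spot. LeGO-1.0/1.6 replicate 1 had the most of both such probes and outlier spots (644). The 24 arrays lay on 3 slides. Slide 1 held all -LH arrays with siNEG +LH replicate 1 and LeGO-GFP replicate 1, slide 2 the other +LH siRNA arrays, and slide 3 the other LeGO arrays. On the log2 scale, the probe that the study's tables name as *mPINC* lay between 7.41 and 7.48 in siNEG -LH and between 6.16 and 6.39 in the knockdown groups without hormones. With hormones all siRNA groups lay between 4.15 and 5.25 with overlap and were not well above background on every array. The same probe lay between 13.34 and 13.50 in LeGO-1.0/1.6 cells and between 5.92 and 6.38 in the other LeGO groups. Its place in the transcript is not given in the sources used here, so it is no check of the LeGO-DCR label. Of the luminal markers, *Krt8*, *Krt18*, *Epcam* and *Cdh1* were well above background on 24 arrays and *Krt19* on 1, and the 4 basal markers *Krt5*, *Krt14*, *Trp63* and *Acta2* were so on 24.

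The bases before each start are shown because both genes were higher with the same hormones. They are the 250 bases before the transcription start in RefSeq on GRCm38.p6, for *Pip* the plus strand of chr6:41847299-41847548 and for *Mal* the minus strand of chr2:127656696-127656945. Capitals mark matches, on either strand, to TTCNNNGAA (the STAT pattern), AGAACA (an arm of the glucocorticoid receptor site) or TATAAA. The full receptor site, AGAACA and TGTTCT with 3 bases between them, contains the arm and was searched as well.
Pip: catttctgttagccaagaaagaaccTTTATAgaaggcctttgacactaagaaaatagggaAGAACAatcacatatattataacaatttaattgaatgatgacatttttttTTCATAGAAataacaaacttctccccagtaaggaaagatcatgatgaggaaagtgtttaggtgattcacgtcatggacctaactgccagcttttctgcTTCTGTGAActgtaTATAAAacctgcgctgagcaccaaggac
Mal: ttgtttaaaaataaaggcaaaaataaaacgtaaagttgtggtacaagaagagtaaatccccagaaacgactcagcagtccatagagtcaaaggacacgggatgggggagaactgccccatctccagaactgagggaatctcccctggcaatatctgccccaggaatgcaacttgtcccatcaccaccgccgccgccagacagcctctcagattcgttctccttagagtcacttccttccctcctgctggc

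The *Pip* window held 2 matches to the STAT pattern, TTCATAGAA at 140 to 132 bases and TTCTGTGAA at 42 to 34 bases before the start. It also held TATAAA at 28 to 23 bases before the start, the same pattern on the other strand at 225 to 220 bases, and AGAACA at 190 to 185 bases. Among 32851 RefSeq windows of this length, 7.02% held the STAT pattern, 16.1% AGAACA and 12.4% TATAAA. The full receptor site occurred in 0.00913% of windows and in neither of these. The *Mal* window held no match to any of the patterns, which says only that these letters are not in it.

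**Figure D1:**
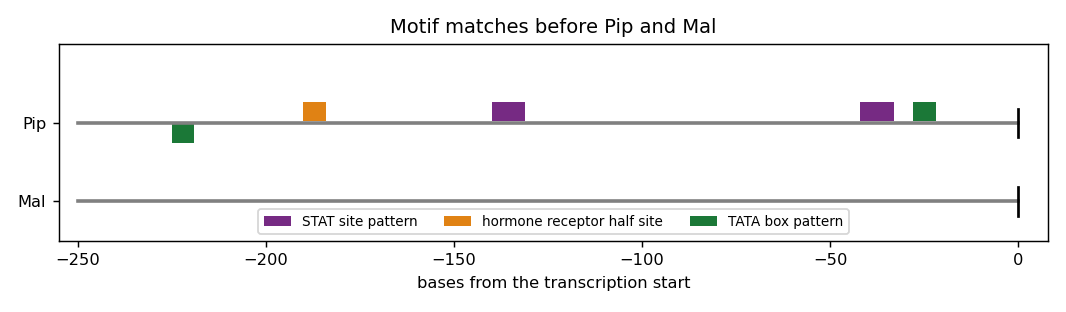
Matches to the STAT pattern, the receptor site arm and TATAAA in the 250 bases before *Pip* and *Mal*. The horizontal axis is the distance in bases from the transcription start, boxes above a line are on the gene's own strand and boxes below it on the other, and the *Mal* line carries no box.

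Both genes were higher with lactogenic hormones in control cells, *Pip* far more than *Mal*. In siNEG cells without hormones the *Pip* log2 signal was 11.51 and 11.48, and with hormones 16.09, 16.03 and 16.17. The 2 groups did not overlap, and each varied far less than the distance between them. *Pip* rose 24.2-fold (log2 fold change 4.60, SE 0.05, 95% confidence interval 22.3- to 26.4-fold, limma adjusted p = 2.67e-11). Of 55681 probes, 61 had a larger rise, and 27.1% of probes were called in this contrast, 13.5% higher and 13.6% lower. *Mal* was 11.09 and 10.95 without hormones and 12.05, 12.05 and 12.08 with them, again with no overlap. *Mal* rose 2.06-fold (log2 fold change 1.04, SE 0.07, 95% confidence interval 1.85- to 2.29-fold, limma adjusted p = 8.82e-07), and 3687 probes rose more. Slide and hormone were largely confounded, but siNEG +LH replicate 1 shared its slide with the -LH arrays. Within that slide *Pip* was 4.59 and *Mal* 1.03 higher on the log2 scale than the siNEG -LH mean.

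The basal markers moved beside these rises, with 3 of 4 lower and 1 higher (13.6% and 13.5% of all probes). Their summed signal fell from between 160600 and 164700 in siNEG -LH arrays to between 42040 and 52780 in siNEG +LH arrays. *Krt5* carried most of it, with a log2 fold change of -2.72. The luminal sum was between 28680 and 29940 without hormones and between 54780 and 58110 with them, with 3 of 5 markers higher. In such bulk RNA a change in the share of a cell type and a change in RNA per cell cannot be told apart, and the part of these markers in the *Pip* and *Mal* values was not tested. T lymphocyte markers, relevant since *Mal* is a T cell gene, had 1 of 6 lower (*Lck*) and a summed signal of 1471 to 1763 without and 1585 to 2266 with hormones, and *Cd3e*, *Cd4* and *Lck* were well above background on all 24 arrays, *Cd3g* on 1, *Cd8a* on 2 and *Ptprc* on 7. Oligodendrocyte markers had 1 of 4 higher and 1 lower, with sums of 622.5 to 657.9 without and 509.5 to 586.4 with hormones. Of the 3 fibroblast markers 2 fell and 1 rose, and their sums were 648.6 to 674.3 and 366.8 to 377.0.

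**Figure D2:**
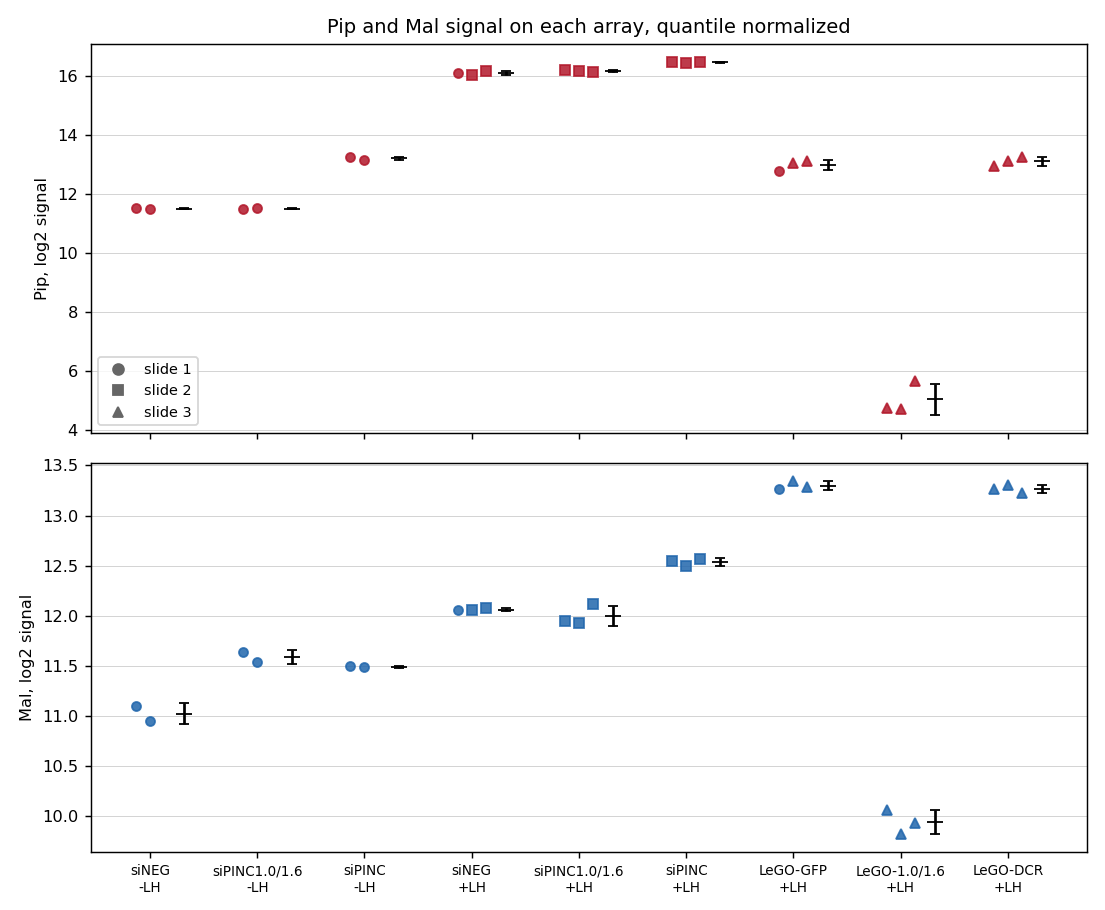
Log2 quantile-normalized signal of *Pip* (upper panel) and *Mal* (lower panel) on each array, by group, with the marker shape giving the slide and the black bar the group mean ± SD (n = 2 or 3). *Pip* was highest in hormone-treated siRNA cells (16.03 to 16.47), *Mal* in LeGO-GFP and LeGO-DCR cells (13.23 to 13.35), and both were lowest in LeGO-1.0/1.6 cells.

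Knockdown cells also had more of both genes with hormones than without, as values with no test. *Pip* was 4.66 higher on the log2 scale in siPINC1.0/1.6 cells, and 3.26 higher in siPINC cells, where it started from a higher level. *Mal* was 0.41 higher in siPINC1.0/1.6 cells, which also started higher than siNEG, and 1.05 higher in siPINC cells. All of these -LH and +LH arrays lay on different slides, so slide and hormone cannot be told apart there.

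The siRNA pairs did not give the same picture for *Pip*. Without hormones *Pip* read 11.48 and 11.52 in siPINC1.0/1.6 cells, overlapping siNEG, a log2 difference of 0.00 (SE 0.06). In siPINC cells it read 13.24 and 13.15, above both siNEG arrays, a log2 difference of 1.70 (SE 0.06) or 3.25-fold. No probe of the array was called in the siPINC contrast without hormones (0.0%, limma), while 5391 had an unadjusted p under 0.05 and 2 passed the methods' t-test after adjustment. Other settings called up to 902 probes there (with a slide term over all arrays), 178 under normexp, 85 without siNEG -LH replicate 1 and 153 without siPINC -LH replicate 1. In the siPINC1.0/1.6 contrast 2.96% were called. With hormones *Pip* read 16.19, 16.15 and 16.14 after siPINC1.0/1.6, overlapping siNEG (log2 difference 0.06, SE 0.05). After siPINC it read 16.46, 16.44 and 16.47, above every siNEG array (log2 difference 0.36, SE 0.05, 1.29-fold). In these contrasts 3.84% and 0.681% of probes were called. Set side by side, siPINC cells exceeded siPINC1.0/1.6 cells by 1.70 without and 0.30 with hormones on the log2 scale.

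*Mal* followed another order. Without hormones it read 11.63 and 11.54 after siPINC1.0/1.6 and 11.50 and 11.48 after siPINC, all above siNEG. The log2 differences from siNEG were 0.57 (SE 0.08, 1.48-fold) and 0.47 (SE 0.08, 1.39-fold). With hormones *Mal* read 11.95, 11.92 and 12.11 after siPINC1.0/1.6, overlapping siNEG (log2 difference -0.07, SE 0.06). After siPINC it read 12.54, 12.50 and 12.57, above every siNEG array (log2 difference 0.48, SE 0.06, 1.39-fold). Thus siPINC cells had higher *Mal* than siPINC1.0/1.6 cells with hormones, by 0.54 on the log2 scale, and slightly lower *Mal* without them, by -0.10. The knockdown contrasts within a hormone state share the siNEG arrays. On slide 2 alone, against siNEG +LH replicates 2 and 3, the siPINC differences were 0.36 for *Pip* and 0.47 for *Mal*.

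Summed marker signals also differed between the knockdown and siNEG arrays given above. Without hormones the basal sum was lower in both knockdown groups (139900 to 147300 after siPINC1.0/1.6 and 139100 to 140500 after siPINC), and with hormones it was higher in both (65870 to 71050 and 57850 to 63650). The luminal sum without hormones overlapped siNEG after siPINC1.0/1.6 (27990 to 29510) and was lower after siPINC (25320 to 26390), and with hormones it was lower after siPINC1.0/1.6 (44020 to 48470) and higher after siPINC (66380 to 67200). The oligodendrocyte sum without hormones was higher in both (692.7 to 763.1 and 780.6 to 787.2), and with hormones it was higher after siPINC1.0/1.6 (645.4 to 676.5) and overlapped siNEG after siPINC (572.5 to 598.5). Fibroblast sums were lower in both, without hormones (353.4 to 371.4 and 550.2 to 556.2) and with them (303.3 to 319.2 and 315.8 to 350.8). T lymphocyte sums overlapped siNEG throughout (1396 to 1534 and 1454 to 1782 without hormones, 1421 to 1788 and 1308 to 1991 with them). After siPINC no marker of these lists passed the test (0.0% of all probes called without and 0.681% with hormones). After siPINC1.0/1.6 without hormones (2.96% of all probes called) 1 of 4 basal markers was higher and 1 of 4 oligodendrocyte markers lower. Of the 3 fibroblast markers 1 was higher and 2 lower. With hormones (3.84% of all probes called) 2 basal markers were higher and 1 luminal and 1 fibroblast marker lower. The part of these markers in the *Pip* and *Mal* differences was not tested.

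**Figure D3:**
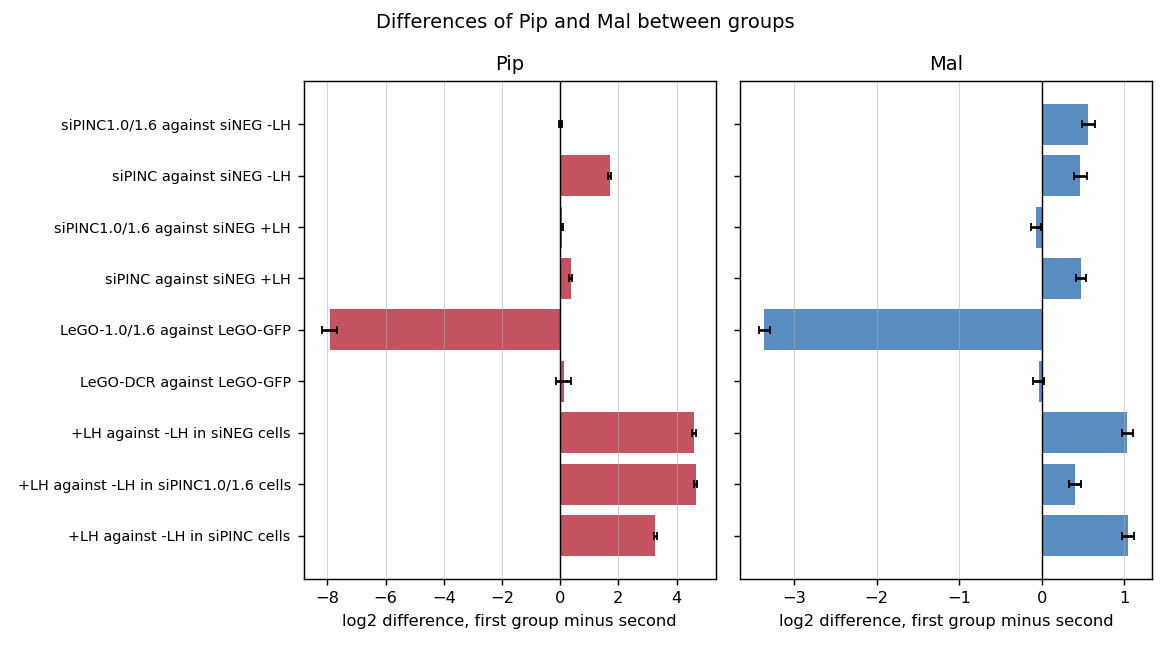
Log2 differences of *Pip* (left) and *Mal* (right) for 9 pairs of groups, first group minus second, with bars from 0 and error bars of 1 SE from limma. The panels have different horizontal scales. The long bars to the left are LeGO-1.0/1.6 against LeGO-GFP (-7.92 for *Pip*, -3.36 for *Mal*), and the LeGO-DCR bars lie within 1 SE of 0.

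Cells overexpressing *mPINC1.0* and *mPINC1.6* had the lowest levels of both genes. *Pip* read 12.77, 13.03 and 13.11 in LeGO-GFP cells and 4.75, 4.73 and 5.66 in LeGO-1.0/1.6 cells, a log2 difference of -7.92 (SE 0.25). As scanner signals before normalization these were 6125 to 9398 and 29.22 to 56.39. The LeGO-1.0/1.6 spots still counted as well above background, with the lowest such probe of those arrays between 2.04 and 2.77 on the log2 scale, and only 11 probes of the array had a lower difference. *Mal* read 13.26, 13.35 and 13.28 in LeGO-GFP cells and 10.06, 9.82 and 9.93 in LeGO-1.0/1.6 cells, a log2 difference of -3.36 (SE 0.07) or 10.3-fold lower, and 304 probes had a lower one. In this contrast 30.3% of probes were called, 15.8% of all probes as lower. Both levels also lay below those of siNEG cells without hormones, *Pip* by -6.45 and *Mal* by -1.08 on the log2 scale, a setting side by side of separate experiments. Within slide 3, against LeGO-GFP replicates 2 and 3, the differences were -8.02 and -3.38. Of the basal markers 3 of 4 were lower and 1 higher, with sums of 65380 to 69360 in LeGO-GFP and 17030 to 17700 in LeGO-1.0/1.6 arrays. The basal sum was lower here along with *Pip* and *Mal*. In siNEG cells, a separate experiment, the basal sum was lower with hormones and both genes were higher. Luminal sums were 36220 to 36350 and 31080 to 33480, with 3 of 5 markers lower. T lymphocyte sums overlapped (2045 to 2815 and 2178 to 2642, 1 of 6 higher and 1 lower), oligodendrocyte sums were 447.0 to 530.4 and 286.2 to 446.5 (1 of 4 lower), and fibroblast sums 225.7 to 256.6 and 367.7 to 414.2 (1 of 3 higher). Their part in the result was not tested.

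No change of *Pip* or *Mal* was detected with the *mPINC* form that lacks the conserved exons. *Pip* read 12.94, 13.10 and 13.24 in LeGO-DCR cells, overlapping LeGO-GFP, and the difference was 1.09-fold (95% confidence interval 0.72- to 1.65-fold, limma adjusted p = 1.0). *Mal* read 13.26, 13.30 and 13.23, and the difference was 0.976-fold (95% confidence interval 0.871- to 1.09-fold, limma adjusted p = 1.0). In this contrast 41 probes were called (0.0736%) and 2519 had an unadjusted p under 0.05. The interval for *Pip* is wide because the fit shares its spread with the LeGO-1.0/1.6 arrays, where *Pip* had an SD of 0.53 against 0.18 in LeGO-GFP and 0.15 in LeGO-DCR. Within slide 3 the differences were 0.02 and -0.05 on the log2 scale. LeGO-DCR cells exceeded LeGO-1.0/1.6 cells by 8.05 for *Pip* and 3.33 for *Mal*.

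The vector control and the siRNA control differed in opposite directions for these genes, although both had hormones. *Pip* was 3.13 lower and *Mal* 1.24 higher on the log2 scale in LeGO-GFP than in siNEG +LH cells. The experiment and the group cannot be told apart in this pair. Between the replicate 1 arrays, which shared slide 1, the values were -3.32 and 1.21.

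Ordered by group mean, *Pip* formed 4 levels. LeGO-1.0/1.6 (5.05 ± 0.53) was lowest, and siNEG -LH (11.50 ± 0.02) and siPINC1.0/1.6 -LH (11.50 ± 0.03) followed, with overlap between them. LeGO-GFP (12.97 ± 0.18), LeGO-DCR (13.09 ± 0.15) and siPINC -LH (13.20 ± 0.06) came next, where LeGO-DCR overlapped both others and LeGO-GFP lay just below siPINC -LH. The hormone-treated siRNA groups were highest, where siNEG (16.09 ± 0.07) overlapped siPINC1.0/1.6 (16.16 ± 0.03) and siPINC (16.46 ± 0.02) stood above both. *Mal* ran from LeGO-1.0/1.6 (9.94 ± 0.12) through siNEG -LH (11.02 ± 0.10), siPINC -LH (11.49 ± 0.01) and siPINC1.0/1.6 -LH (11.59 ± 0.07) to siPINC1.0/1.6 +LH (12.00 ± 0.10) and siNEG +LH (12.06 ± 0.01), and this last pair overlapped. Above them lay siPINC +LH (12.54 ± 0.04), LeGO-DCR (13.26 ± 0.04) and LeGO-GFP (13.30 ± 0.04), where the LeGO groups overlapped. Values are log2 signal ± SD over n = 2 (-LH) or n = 3 (+LH) arrays. The order thus differed between the genes in where LeGO-GFP, LeGO-DCR and siPINC -LH fell. The siPINC -LH mean stood above siPINC1.0/1.6 -LH for *Pip* and below it for *Mal*. Pearson's r of the 9 group means of *Pip* and *Mal* was 0.678, and 0.252 over the 8 groups without LeGO-1.0/1.6.

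The genes whose group means ran most like those of *Pip* were *Zfp239* (r = 0.995), *Rpf1* (0.995), *Fam180a* (0.991), *Cyp4b1* (0.991) and *Atxn7l3b* (0.989), among 18232 probes that varied by at least 1 log2 unit and were above background in some group. Without LeGO-1.0/1.6 their r lay between 0.971 and 0.985. *Fam180a* and *Cyp4b1* spanned 1.91 to 8.83 and 2.19 to 9.42 on the log2 scale, while *Atxn7l3b* spanned only 13.13 to 14.27. *Rpf1* was dim, with group means from 3.88 to 5.83. The low ends of *Fam180a* and *Cyp4b1* were in LeGO-1.0/1.6 cells. On those arrays the lowest signal still well above background was between 2.04 and 2.77, so the size of their dip is uncertain. Those most like *Mal* were *Epb41l4a* (0.980), *Gpr137c* (0.979), *Kif26a* (0.976), *Ogfod3* (0.974) and *Rnf39* (0.973), between 0.949 and 0.968 without LeGO-1.0/1.6. *Gpr137c* was dim as well, with group means from 3.65 to 5.58. These are descriptions over 9 points that share control arrays, slides and the normalization.

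**Figure D4:**
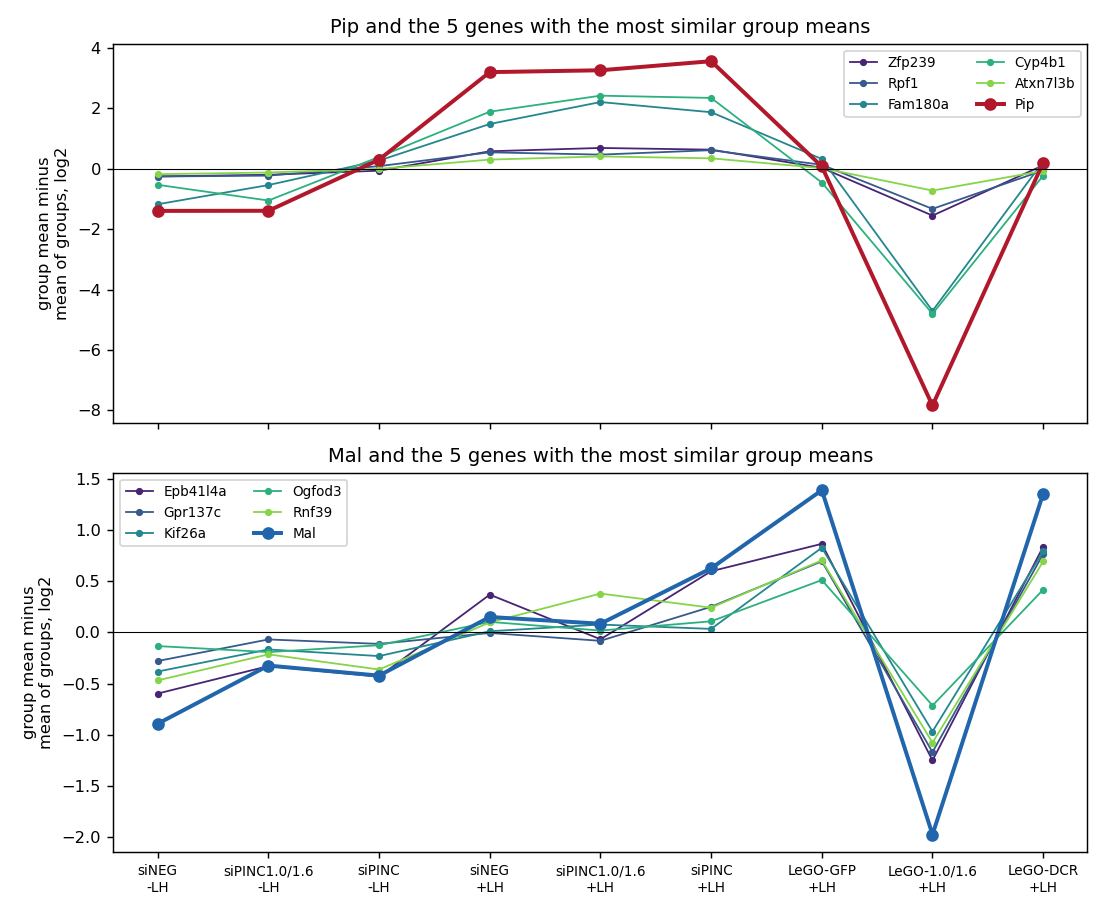
Group means of *Pip* (upper panel, thick line) and *Mal* (lower panel, thick line) with the 5 genes of highest r for each, as log2 signal minus each gene's own mean over the 9 groups. All lines dip at LeGO-1.0/1.6, and the lower panel's lines stand highest at LeGO-GFP and LeGO-DCR while the upper panel's lines stand highest in the +LH siRNA groups.

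Of the milk protein list, 4 of 9 genes were higher in siNEG cells with the same hormones, none lower and 5 not passing (median log2 fold change 1.67 against 0.01 over all probes). Of all probes 13.5% were called higher and 13.6% lower in this contrast. Probes never well above background count in these shares, so a list of detected genes can exceed them without being set apart. *Csn2*, the beta-casein gene, was well above background on 0 of the 2 arrays without hormones and rose at least 285-fold (10.94 with and 1.97 without hormones on the log2 scale, limma adjusted p = 1.25e-10), and *Csn1s1*, the alpha-casein gene, at least 13.9-fold (limma adjusted p = 1.37e-06). These bounds set the bright group against the lowest signal still well above background. *Csn3*, the kappa-casein gene, rose 7.34-fold and *Ltf*, the lactoferrin gene, 3.94-fold (limma adjusted p = 2.37e-07 and 3.23e-07). *Wap*, the whey acidic protein gene, was well above background on none of the siNEG arrays. *Csn3*, *Ltf* and *Wap* had a named probe only through the study's lists of probes that changed with *mPINC* knockdown or overexpression on these arrays. Their calls in the contrasts that follow are therefore not independent evidence. In LeGO-1.0/1.6 cells 6 of the 9 were lower than in LeGO-GFP and 0 higher (30.3% of all probes called, 15.8% lower). In the knockdown contrasts, without hormones, 1 was lower after siPINC1.0/1.6 (2.96% of all probes called) and none passed after siPINC, where no probe of the array was called. With hormones 1 was higher (*Ltf*, 2.14-fold) and 1 lower (*Csn2*, -1.20 on the log2 scale) after siPINC1.0/1.6 (3.84% of all probes called), and 2 were higher after siPINC (0.681% called), *Ltf* 2.41-fold and *Csn3* 1.75-fold.

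Of the 4 lactation genes that the study names along with *Pip* and *Mal*, 3 were higher and 1 lower with hormones (13.5% and 13.6% of all probes). The study chose them on these samples, so their direction with *mPINC* is not independent evidence. *Csn3* is given above, *Clu*, a secreted chaperone, rose 2.30-fold and *Cidea*, a lipid droplet protein, 1.34-fold. *Cp*, the copper-carrying ceruloplasmin, fell by 0.67 on the log2 scale. All 4 were lower in LeGO-1.0/1.6 than in LeGO-GFP cells (15.8% of all probes called lower). Without hormones, siPINC1.0/1.6 cells had 2 of the 4 higher (*Cp* and *Clu*) and 2 lower (*Csn3* and *Cidea*), with 2.96% of all probes called. With hormones each siRNA pair had 1 of the 4 higher (3.84% of all probes called after siPINC1.0/1.6 and 0.681% after siPINC).

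Of the prolactin signalling genes, 6 of 9 were higher and 2 lower with hormones (13.5% and 13.6% of all probes, median log2 fold change of the list 0.76). *Cish*, a feedback inhibitor induced by STAT5, rose 4.33-fold, *Elf5*, an alveolar transcription factor, 3.33-fold and *Stat5a* 2.38-fold, while *Socs3*, another feedback inhibitor, fell 3.82-fold (limma adjusted p between 1.74e-08 and 5.2e-07). *Prlr*, the prolactin receptor, did not pass (log2 fold change 0.03, SE 0.08). Overexpression of both forms split them, 4 up and 4 down against LeGO-GFP (30.3% of all probes called, 15.8% lower). *Elf5* was lower by 5.47 on the log2 scale (10.04 and 4.58), *Stat5a* lower by 0.21 and *Cish* lower by 1.22, and *Socs3* was higher by 1.11. After siPINC1.0/1.6 with hormones, 5 of the 9 were lower and 1 higher (3.84% of all probes called). After siPINC with hormones 1 was higher and 0 lower (0.681% called). This difference between the siRNA pairs was not tested.

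Glucocorticoid response genes had 7 of 9 higher and 1 lower with hormones (13.5% and 13.6% of all probes, median log2 fold change of the list 1.29). *Tsc22d3*, a glucocorticoid-induced inhibitor of inflammation, rose 15.3-fold, *Fkbp5*, a chaperone of the receptor, 7.97-fold, *Zbtb16*, a transcription factor, 6.28-fold and *Per1*, a clock gene, 5.61-fold (limma adjusted p between 1.25e-10 and 4.98e-07). In LeGO-1.0/1.6 cells 7 of the 9 were lower and 1 higher (30.3% of all probes called, 15.8% lower). The log2 differences were -0.89 for *Tsc22d3*, -1.47 for *Fkbp5*, -2.02 for *Zbtb16* and -0.81 for *Per1*. None of the 9 passed in the 4 knockdown contrasts, in which between 0.0% and 3.84% of all probes were called.

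Among the relatives of *Pip*, which lie next to it on chromosome 6, 1 of 4 rose (13.5% of all probes called higher). *Sval2*, the next gene, was well above background on 1 of 3 siNEG +LH arrays and on 0 of 2 without hormones, and was at least 2.17-fold higher (4.26 and 2.49 on the log2 scale, limma adjusted p = 0.0196). *Sval1* and *Sval3* were not well above background in siNEG cells, and neither was *Sva*. None of the 4 passed in a knockdown contrast. In LeGO-1.0/1.6 cells *Sva* was lower than in LeGO-GFP (-0.94 on the log2 scale), well above background on 1 of 3 and 2 of 3 arrays, and the other relatives did not pass. Of all probes 15.8% were called lower there. On the other side, *Kel* and *Olfr459* were well above background on 0 of 24 arrays. Around *Mal* on chromosome 2, *Mrps5*, a mitochondrial ribosome gene, fell by 0.96 on the log2 scale with hormones (limma adjusted p = 7.05e-06) and *Zfp661* did not pass (0.16, limma adjusted p = 0.163). The genes on the other side of *Mal* had no named probe.

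The MARVEL relatives of *Mal* split, with 8 of 15 higher and 4 lower with hormones (13.5% and 13.6% of all probes, median log2 fold change of the list 0.39). *Cmtm5* rose 41.7-fold (4.70 to 10.08 on the log2 scale, limma adjusted p = 3.81e-08) and *Cmtm8* 4.22-fold. *Ocln*, the tight junction protein occludin, rose 2.94-fold, *Marveld3*, also of tight junctions, 2.52-fold and *Mal2*, which carries cargo across the cell to the apical side, 1.73-fold. *Cmtm4* fell 2.34-fold and *Plp2* 1.90-fold. In LeGO-1.0/1.6 cells 8 were lower and 3 higher (30.3% of all probes called, 15.8% lower). On the log2 scale *Mal2* was at -0.90, *Cmtm5* at -2.56, *Cmtm8* at -1.63 and *Cmtm4* at 1.53. After siPINC1.0/1.6 without hormones *Mal2* (log2 difference 0.71) and *Cmtm4* (0.51) were called higher and none lower (2.96% of all probes called). With hormones *Mal2* was among the 3 relatives called higher after siPINC1.0/1.6 (0.26), where 3 were lower, and was the 1 called higher after siPINC (0.34), where 1 was lower. Of all probes 3.84% and 0.681% were called in these 2 contrasts.

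Genes of lipid rafts and apical transport, the membrane domain and route in which *Mal* works, had 6 of 9 higher and 1 lower with hormones (13.5% and 13.6% of all probes). The median log2 fold change of the list was 0.59. *Flot1*, a raft scaffold protein, rose 1.94-fold and *Cav2*, a caveolin, 1.84-fold, while *Inf2*, an actin regulator, fell 1.74-fold (limma adjusted p between 1.95e-06 and 2.78e-05). *Cd59a*, whose protein is anchored in rafts, was above background on 1 of 3 arrays with hormones and 0 of 2 without, at least 2.83-fold higher (limma adjusted p = 0.00138). In LeGO-1.0/1.6 cells 5 were lower and 0 higher (30.3% of all probes called, 15.8% lower). In the knockdown contrasts 1 passed, *Inf2*, higher after siPINC1.0/1.6 with hormones (log2 difference 0.45, 3.84% of all probes called). In the LeGO-DCR contrast none of the genes of these lists passed (0.0736% of all probes called).

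**Figure D5:**
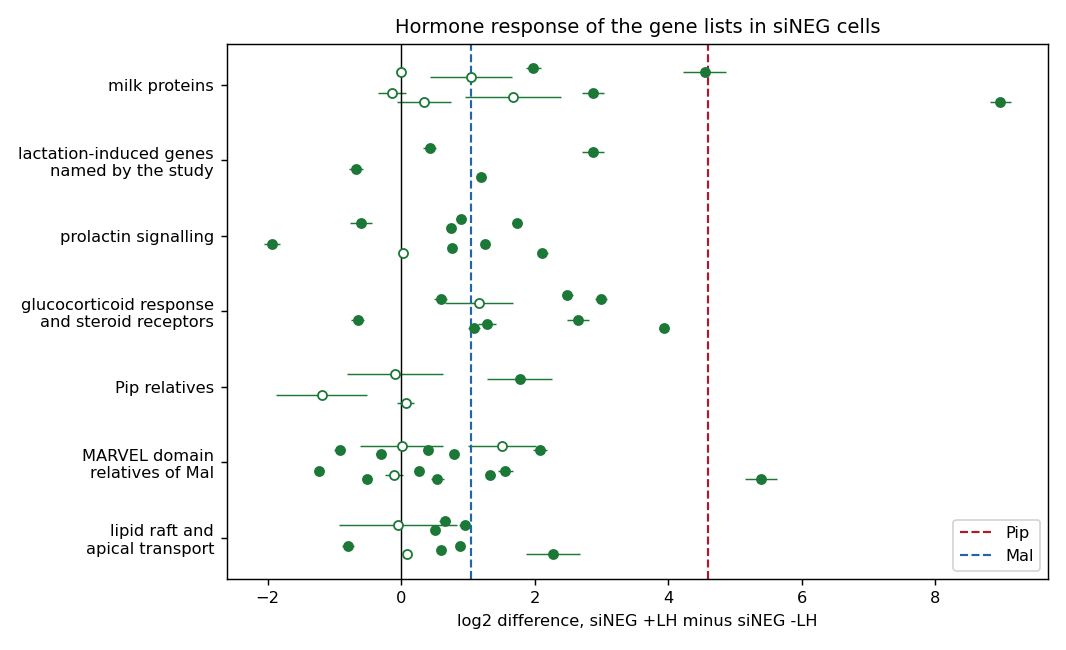
Log2 difference between siNEG +LH and siNEG -LH for each gene of 7 lists, with error bars of 1 SE, filled circles for genes called at a limma adjusted p under 0.05 and open circles for the others. Dashed lines mark *Pip* (4.60) and *Mal* (1.04). *Csn2* and *Cmtm5* lie to the right of *Pip*, and circles to the left of *Mal* are found in every list.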

How the data were processed

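HC11 RNA was hybridized to 24 one-colour Agilent mouse arrays (8 to a slide, 59305 non-control spots, 55681 probes). The authors deposited scanner intensity files (Feature Extraction 11.0.1.1, signals already background-corrected within each array) and their own quantile-normalized log2 table, whose column medians lay between 5.29 and 5.33. That table ran with the log2 scanner signal (r from 0.981 to 0.991), so its scale and direction are settled and its flooring is not. Here log2 processed intensity was quantile normalized across arrays, outlier spots were dropped and spots averaged per probe. Groups were fitted with limma 3.58.1 (R 4.3.3) in 4 fits, the siRNA arrays without hormones, those with hormones, all siRNA arrays, and the LeGO arrays. P-values were adjusted by Benjamini-Hochberg over all probes and called under 0.05. A probe was named through its RefSeq accession (26576 probes) or, for *Csn3*, *Ltf*, *Wap* and *mPINC*, through the study's tables. Each gene of a list was its brightest probe, and up to 4 called genes with the largest hormone response were named per list, plus the relatives of *Pip* and *Mal*, the 3 genes on either side and the 5 of highest r.

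Array number limits the precision. The limma p-values judge a difference against a spread pooled over all groups of a fit and moderated over all probes. The members and lists were chosen with earlier results of these data known. On simulated data, changes of 2 log2 units were called in 60% of probes (hormone contrast) and 69% (LeGO-DCR contrast), and changes of 1 log2 unit in 43% and 46%. The simulation changed 100 probes at each size, drawn from all 55681 whether or not above background. In the real hormone contrast 15115 were called, and the adjustment depends on that share. These rates therefore do not give the power for *Pip*, for *Mal* or for the real contrasts. Alternatives were 75th percentile scaling, normexp background correction (offset 50), the deposited table, a slide term, the replicate number as a block, a trended robust prior, bright probes only, 1 fit of all arrays, the methods' t-test and each array left out. The list counts without siNEG +LH replicate 1 and without LeGO-1.0/1.6 replicate 1 were added after seeing the data. Values of 1 gene of the glucocorticoid list are not reported here.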

Additional observations from a re-analysis of the deposited data

How the results depend on the processing

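The rises of *Pip* and *Mal* with hormones in siNEG cells kept their direction and passed the threshold under the 9 alternative settings (*Pip* 4.31 to 4.60 and *Mal* 0.94 to 1.07 on the log2 scale, highest adjusted p 0.00804, from the methods' t-test) and without each array in turn (*Pip* 4.56 to 4.63, *Mal* 0.97 to 1.11). The 75th percentile scaling moved the median of all probes in this contrast from 0.01 to 0.18 (in siPINC cells from 0.01 to 0.23), with *Pip* at 4.31 and *Mal* at 0.94. The LeGO-DCR differences stayed short of the threshold throughout (*Pip* 0.02 to 0.20, *Mal* -0.06 to -0.01).

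The count of probes called in the LeGO-DCR contrast (41) was unstable, with 6 under 75th percentile scaling, 79 under normexp, 1 in the deposited table, 0 with the replicate block, 0 with the trended robust prior, 18 in 1 fit of all arrays and 1 by the methods' t-test. Without single arrays it ran from 9 (without LeGO-DCR replicate 3) to 69 (without LeGO-GFP replicate 2), with 15 without LeGO-DCR replicate 1, 12 without LeGO-DCR replicate 2, 17 without LeGO-1.0/1.6 replicate 2 and 20 without LeGO-1.0/1.6 replicate 3. The cause was not tested. In the hormone contrast (15115) the methods' t-test called 8957 after adjustment, and 7680 at an unadjusted p under 0.01 with a fold over 1.4 (398 for LeGO-DCR), the looser of the study's fold limits, which it set for other contrasts.

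Some untested differences moved by more than the spread between replicates. Under normexp *Pip* in LeGO-1.0/1.6 cells was -6.29 and *Mal* -3.23, and *Pip* was -7.13 in the deposited table. After siPINC without hormones *Pip* was 1.65 and *Mal* 0.55 under normexp, and *Mal* 0.56 in the deposited table. After siPINC with hormones *Mal* was 0.54 in the deposited table. After siPINC1.0/1.6 without hormones 75th percentile scaling gave 0.065 for *Pip* and 0.67 for *Mal*. Leaving out single arrays gave 1.66 to 1.74 for *Pip* after siPINC, 0.40 to 0.54 for *Mal* after siPINC and 0.49 to 0.64 for *Mal* after siPINC1.0/1.6, all without hormones.

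The replicate numbers were not taken to pair the samples, and whether they mark pairs is not settled. Deviations of same-numbered arrays correlated between 0.05 and 0.133 in the -LH siRNA groups. The range was -0.432 to 0.145 in the +LH siRNA groups and -0.012 to 0.219 in the LeGO groups. Among the arrays with hormones, not every array correlated best with its own number. With the replicate block *Pip* rose by 4.59 and *Mal* by 1.01 with hormones, 14060 probes were called, and no call of *Pip* or *Mal* changed. The list counts were the same without siNEG +LH replicate 1 or LeGO-1.0/1.6 replicate 1, apart from 1 more oligodendrocyte marker lower in each (2).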
